A study of Mus musculus with 34 samples.

Results

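The genes described here are 10 secreted signalling proteins of mouse neural stem cells, taken by gene symbol: the chemokines Ccl2, Ccl7, Cxcl1, Cxcl5, Cxcl10, Cxcl12 and Cx3cl1, and the cytokines Lif, Il6 and Csf1. Of the 10, 9 had at least 1 probe, and the 9 together had 19 of the 34885 probes that carry a single gene symbol. No probe carried the symbol Cxcl5. RNA came from C17.2 cells, a mouse line of immortalised neural stem cells, and from primary neural stem cells (NSC) isolated from the mouse telencephalon at embryonic day 13.5. Cells received a retrovirus with STAT3C, a constitutively active mutant of STAT3, a retrovirus with CEBPB, both retroviruses, or the empty vector as control. The sample descriptions name the control vector as pBabe for NSC and only as a control retrovirus for C17.2. The controls too therefore carry a retroviral vector. Each C17.2 group held 4 arrays. NSC had 4 STAT3C, 4 CEBPB, 5 STAT3C+CEBPB and 5 control arrays. For the NSC arrays with both vectors one label field writes STAT3 where the others write STAT3C, and the construct was taken as STAT3C. The labels do not say which arrays are separate cultures, so the p-values speak only to the spread among these arrays, which may be technical.

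Chemokines are small secreted proteins that direct cell migration through G protein-coupled receptors, and their families are named for the spacing of conserved cysteines. In the brain they are known for recruiting microglia, monocytes and neutrophils and for guiding neural precursors. Lif and Il6 signal through the shared receptor subunit gp130 (gene Il6st) and JAK kinases to STAT3, and CEBPB and NF-kappaB are classical activators of cytokine and chemokine genes.

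On the arrays, 33.8 to 35.9% of probes were detected per C17.2 array and 36.3 to 41.7% per NSC array, where detected means a deposited detection p below 0.05. A probe value rests on 22 to 73 beads per array among the probes of these 9 genes, with a median of 42. The identity of the cells is only in part borne out by marker genes. Of 10 neural stem and radial glia markers, 6 were detected on every NSC array and Pax6 on none. In C17.2, 4 of the 10 were detected on every array, and Fabp7, Hes5 and Pax6 on none. Of 8 pericyte and meningeal fibroblast markers, 5 had a probe detected on 4 or more C17.2 arrays, and 0 did in NSC. In C17.2, 2 of the 8 were detected on every array. Their summed signal was 505 to 966 on C17.2 control arrays and -10.3 to 18.8 on NSC control arrays. Some arrays stand apart. In NSC, 4 arrays of slide 6, replicate 4 of each vector group, had none of the 4 Xist probes detected, and their scores on the first principal component of all tested genes lay between -49.1 and -45.3, against -14.6 to 21.6 on the other 14. A separate first component, computed over the C17.2 arrays alone, took up 50.2% of their variance and separated arrays within each transduced group.

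The promoters of 4 of the genes are printed because their transcripts moved together across the C17.2 arrays described further on. They are from RefSeq, mouse build GRCm38.p6, and run from 250 bases before to 50 bases after the annotated start, 5′ to 3′ on the strand of the gene. The table held promoters for 7 of the 10 genes: Cxcl1, Cxcl10, Cxcl12, Cx3cl1, Lif, Il6 and Csf1. Capitals mark matches to 3 motifs searched on both strands: TTCNNNGAA (STAT), TTNNGNAA (C/EBP) and GGG followed by any 3 bases and TTCC (NF-kappaB).
Cxcl1, chr5:90890995-90891294, + strand: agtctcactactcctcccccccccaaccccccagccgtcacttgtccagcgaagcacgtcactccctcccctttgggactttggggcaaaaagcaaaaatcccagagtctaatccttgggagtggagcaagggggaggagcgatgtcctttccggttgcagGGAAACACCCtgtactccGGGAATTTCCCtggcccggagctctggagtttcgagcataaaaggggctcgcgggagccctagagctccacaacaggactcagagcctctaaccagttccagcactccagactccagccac
Cx3cl1, chr8:94771930-94772229, + strand: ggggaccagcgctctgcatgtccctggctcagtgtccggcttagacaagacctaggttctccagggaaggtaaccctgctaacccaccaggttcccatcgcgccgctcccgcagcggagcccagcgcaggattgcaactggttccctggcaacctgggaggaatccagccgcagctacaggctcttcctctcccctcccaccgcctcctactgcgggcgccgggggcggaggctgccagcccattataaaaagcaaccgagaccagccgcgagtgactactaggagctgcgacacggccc
Cxcl12, chr6:117168285-117168584, + strand: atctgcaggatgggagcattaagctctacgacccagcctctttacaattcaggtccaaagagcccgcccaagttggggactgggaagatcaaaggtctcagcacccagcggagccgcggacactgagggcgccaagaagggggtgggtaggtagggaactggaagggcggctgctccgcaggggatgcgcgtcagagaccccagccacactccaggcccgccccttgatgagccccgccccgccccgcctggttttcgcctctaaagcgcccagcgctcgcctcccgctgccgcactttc
Csf1, chr3:107760420-107760719, - strand: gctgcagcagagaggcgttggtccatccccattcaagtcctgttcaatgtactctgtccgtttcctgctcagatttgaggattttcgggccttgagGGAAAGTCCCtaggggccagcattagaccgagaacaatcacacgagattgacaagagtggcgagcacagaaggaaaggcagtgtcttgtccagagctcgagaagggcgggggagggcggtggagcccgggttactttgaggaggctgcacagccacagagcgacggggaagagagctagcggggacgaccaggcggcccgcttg

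The capitals in the Cxcl1 promoter are 3 matches to the NF-kappaB motif, starting 89, 71 and 70 bases before the start, and the last 2 overlap on opposite strands. The Csf1 promoter held 1 such match, 154 bases before the start. The windows of Cx3cl1, Cxcl12 and Lif held no match to any of the 3 motifs. Among the promoters not printed, Cxcl10 held 2 NF-kappaB and 2 C/EBP matches, and Il6 held 1 of each. No STAT match stood in any of the 7 windows. Over all 32851 promoters in the table, 5.56% held the NF-kappaB motif, 40.7% the C/EBP motif and 8.30% the STAT motif. A match is a run of letters, and no binding was measured here.

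The first question was whether the vectors changed these transcripts in the C17.2 line. Of 9699 genes tested, 7 were from this set, each detected on at least 4 arrays: Ccl2, Ccl7, Cxcl1, Cxcl12, Cx3cl1, Lif and Csf1. None of the 7 passed the test in any comparison of a vector with control. The average differences from control were large for several of them, and so was the spread between arrays of the same vector. The lowest adjusted p was 0.243 with STAT3C, 0.0595 with CEBPB and 0.0755 with STAT3C+CEBPB (limma over all genes tested, Benjamini-Hochberg). For comparison, 0.0103% of all genes were called with STAT3C, 1.62% with CEBPB and 0.577% with STAT3C+CEBPB. The 4 controls lay alone on slide 1 and no transduced array did, so these comparisons cannot be told apart from a difference between slides.

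Cxcl1, a neutrophil attractant that acts through Cxcr2, had the widest range of the 7. Its background-subtracted signal was 73.8, 56.7, 1833 and 615 on the STAT3C arrays, 484.0, 311, 53.9 and 393 on the CEBPB arrays, and 1.17, 2771, 145 and 1260.0 on the STAT3C+CEBPB arrays, against 16.9, 16.5, 36.6 and 23.6 on the control arrays. Every STAT3C and CEBPB array was above every control array, while 1 array with both vectors lay below all controls and was not detected. After normalisation the log2 level was 8.09 ± 2.28 with STAT3C, 8.03 ± 1.32 with CEBPB, 8.41 ± 3.07 with both and 5.29 ± 0.37 in control (SD, n = 4 each). The log2 difference from control was 2.80 (SE 1.28, adjusted p = 0.379), 2.73 (SE 1.28, adjusted p = 0.216) and 3.12 (SE 1.28, adjusted p = 0.233) in the same order, by limma. Only 2 of 4 control arrays detected the probe, so it entered the test mainly through the transduced arrays. Leaving out STAT3C+CEBPB replicate 1, the array at 1.17, gave a difference with both vectors of 4.40 (limma adjusted p = 0.0419). This was the 1 call of Cxcl1 with both vectors in 26 fits, main and alternatives, where the adjusted p reached 0.498.

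Cxcl12, the ligand of Cxcr4 and known for holding neural precursors and blood stem cells in place, varied in the same way. Its signal was 11.1, 199, 1318 and 822 with STAT3C, 314, 105.0, 18.4 and 415 with CEBPB, and 4.41, 955, 514 and 175 with STAT3C+CEBPB, against 29.1, 6.97, 54.1 and 12.4 in control. The highest arrays lay far above the controls, and the lowest array of each transduced group overlapped them. The log2 difference from control was 2.81 (SE 1.21, adjusted p = 0.356) with STAT3C, 1.99 (SE 1.21, adjusted p = 0.335) with CEBPB and 2.47 (SE 1.21, adjusted p = 0.301) with both, by limma. This gene had 5 probes. The 3 that were detected in C17.2 on 9 to 12 arrays correlated with each other at 0.945 to 0.981, another was detected on 1 array and the last on none.

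Cx3cl1, the membrane-bound chemokine fractalkine whose receptor Cx3cr1 marks microglia, had a tighter control group. The normalised log2 level was 6.35, 7.27, 8.76 and 7.47 on the STAT3C arrays, 8.19, 7.72, 5.82 and 7.82 on the CEBPB arrays and 6.43, 8.63, 7.21 and 7.65 on the STAT3C+CEBPB arrays, against 5.48, 5.90, 5.55 and 5.79 on the control arrays. All arrays with STAT3C, alone or with CEBPB, were above all controls, and CEBPB replicate 3 was the 1 transduced array among them. The log2 difference was 1.78 (SE 0.55, adjusted p = 0.243) with STAT3C, 1.71 (SE 0.55, adjusted p = 0.0955) with CEBPB and 1.80 (SE 0.55, adjusted p = 0.136) with both, by limma. Without CEBPB replicate 3 the difference with CEBPB was 2.23 (adjusted p = 0.0255), and without STAT3C+CEBPB replicate 1 the difference with both was 2.15 (adjusted p = 0.0468). Over 26 fits, main and alternatives, Cx3cl1 passed in 2 with CEBPB and in 1 with both. Its limma adjusted p reached 0.249 and 0.323.

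Csf1, the growth factor of microglia and macrophages, came nearest to the threshold. Its log2 level was 7.78, 8.28, 9.72 and 8.62 with STAT3C, 9.18, 8.94, 8.96 and 8.55 with CEBPB and 8.62, 9.19, 8.67 and 9.67 with STAT3C+CEBPB, against 7.13, 6.77, 8.42 and 7.27 in control. Every array with CEBPB, alone or with STAT3C, was above every control, and control replicate 3 stood above the other 3 controls. The difference from control was 1.51 (SE 0.39, adjusted p = 0.0595) with CEBPB, 1.64 (SE 0.39, adjusted p = 0.0755) with both and 1.20 (SE 0.39, adjusted p = 0.267) with STAT3C, by limma. Without control replicate 3, Csf1 passed the test with CEBPB (1.85, adjusted p = 0.0255) and with both (1.98, adjusted p = 0.0287). Without CEBPB replicate 3 it passed with CEBPB (1.49, adjusted p = 0.0479), and without STAT3C+CEBPB replicate 1 with both (1.78, adjusted p = 0.0345). Leaving out certain STAT3C arrays, which enter only the shared estimate of spread, had the same effect. The adjusted p with CEBPB was 0.0431 without STAT3C replicate 1 and 0.0366 without STAT3C replicate 3. With both it was 0.0431 without STAT3C replicate 3. Most fits gave no call: Csf1 passed in 7 of 26 with CEBPB and in 4 of 26 with both. These 26 are the main fit and its alternatives, and the limma adjusted p reached 0.162 and 0.197.

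**Figure D1:**
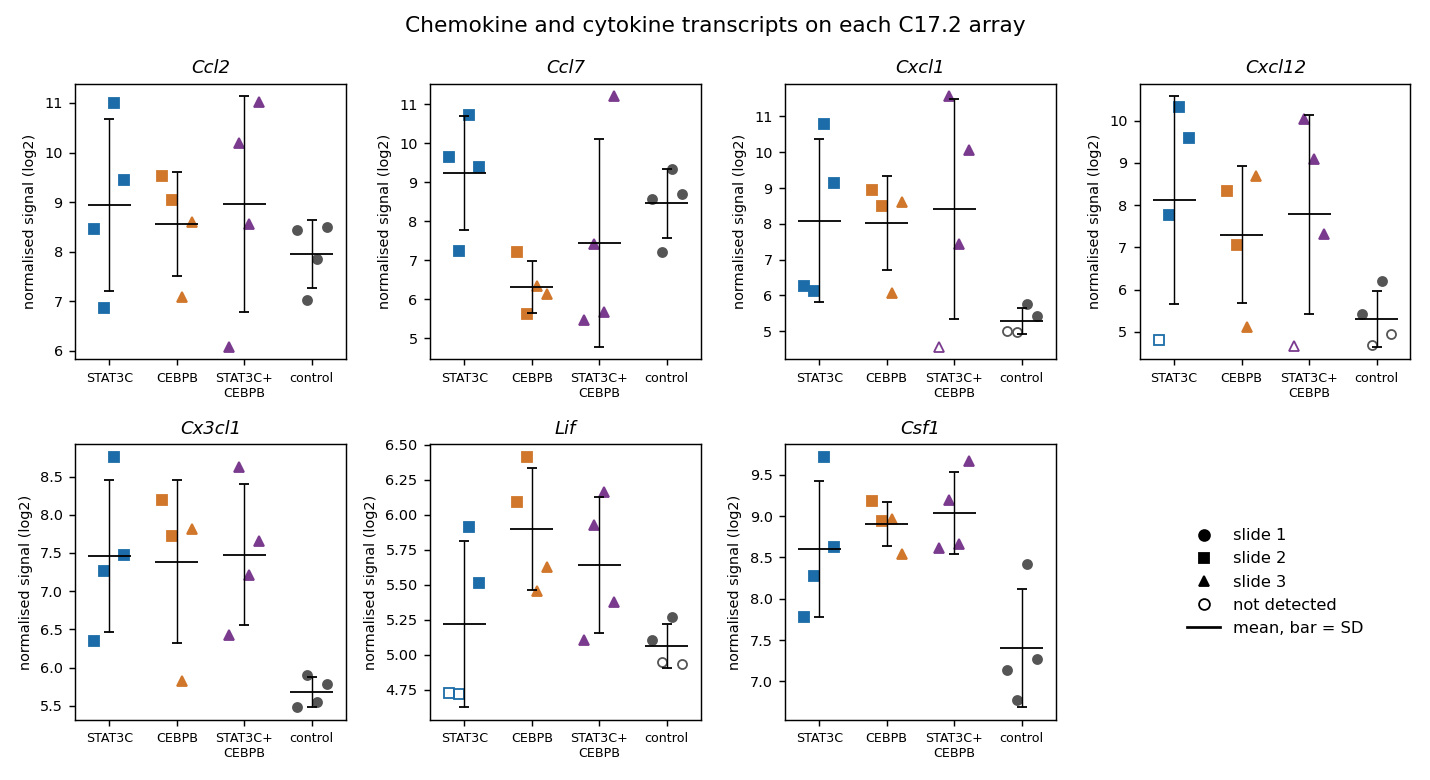
Normalised log2 signal of the 7 tested genes on each of the 16 C17.2 arrays, by vector group, with the group mean and SD; the symbol gives the slide and open symbols are arrays that did not detect the probe. Cxcl1 runs from 4.58 to 11.57 within the STAT3C+CEBPB group, against 4.98 to 5.75 in control, and Cx3cl1 controls lie between 5.48 and 5.90.

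Ccl2 and Ccl7, neighbouring members of the CC family that attract monocytes, did not follow one direction. The log2 level of Ccl2 was 8.45, 6.86, 10.99 and 9.44 with STAT3C, 9.53, 9.04, 7.09 and 8.59 with CEBPB and 6.09, 10.18, 8.56 and 11.02 with both, against 8.44, 7.03, 7.84 and 8.49 in control. All 3 transduced groups overlapped the controls, and the differences of 0.98, 0.61 and 1.01 had a shared SE of 0.96. The log2 level of Ccl7 was 9.64, 7.23, 10.72 and 9.40 with STAT3C, 7.22, 5.61, 6.34 and 6.13 with CEBPB and 5.48, 7.42, 5.67 and 11.21 with both, against 8.58, 7.21, 9.33 and 8.71 in control. Ccl7 averaged lower with CEBPB than in control (log2 difference -2.13, SE 1.02, limma adjusted p = 0.223), although the highest CEBPB array and the lowest control array overlapped at 7.22 and 7.21. All 4 CEBPB arrays were below all 4 STAT3C arrays (difference -2.92, SE 1.02, limma adjusted p = 0.378), a separation found in that direction for 2.77% of all genes. On slide 2, which held both groups, CEBPB was also lower (difference -2.83, 2 CEBPB and 4 STAT3C arrays). The second Ccl7 probe followed the first with a correlation of 0.989 over the 16 arrays.

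Lif, an IL-6 family cytokine that keeps neural stem cells self-renewing, stayed near the detection limit. Its log2 level was 4.73, 4.72, 5.91 and 5.51 with STAT3C, 6.09, 6.41, 5.46 and 5.63 with CEBPB and 5.10, 5.92, 6.16 and 5.37 with both, against 5.10, 4.95, 5.27 and 4.93 in control. All 4 CEBPB arrays detected it and lay above all 4 controls, of which 2 detected it. The difference with CEBPB was 0.83 (SE 0.30, limma adjusted p = 0.119), with both 0.58 (adjusted p = 0.320) and with STAT3C 0.15 (adjusted p = 0.850). Of its 5 probes, 2 were detected on 5 and 12 C17.2 arrays and correlated at 0.890, and the other 3 were detected on 1 array or none. Il6, the founding cytokine of that family, was detected on no C17.2 array, with signals between -11.3 and 6.56.

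Counted together, 2 of the 7 genes had all STAT3C arrays above all controls (Cxcl1 and Cx3cl1), 3 all CEBPB arrays (Cxcl1, Lif and Csf1), and 2 all STAT3C+CEBPB arrays (Cx3cl1 and Csf1). Among all genes such a separation was found for 4.57%, 8.11% and 4.72%. The median log2 difference of the 7 was 1.20, 1.51 and 1.64, against -0.01, 0.01 and 0.01 over all genes. At an unadjusted p below 0.05 there were 4, 4 and 3 of the 7, against 12.8%, 23.0% and 17.8% of all genes. These 7 include Cxcl1, Cxcl12 and Lif, each of which 2 of 4 control arrays detected, so the counts do not stand for all 10 genes. No gene of the 7 was called between STAT3C+CEBPB and STAT3C, where 0.186% of genes were called, between CEBPB and STAT3C (0.227%), between STAT3C+CEBPB and CEBPB (0.0%), or for non-additivity, meaning what both vectors together gave beyond the sum of the single changes (0.0%). By limma at an unadjusted p below 0.05 the last 2 comparisons held 4.0% and 10.8% of all genes.

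**Figure D2:**
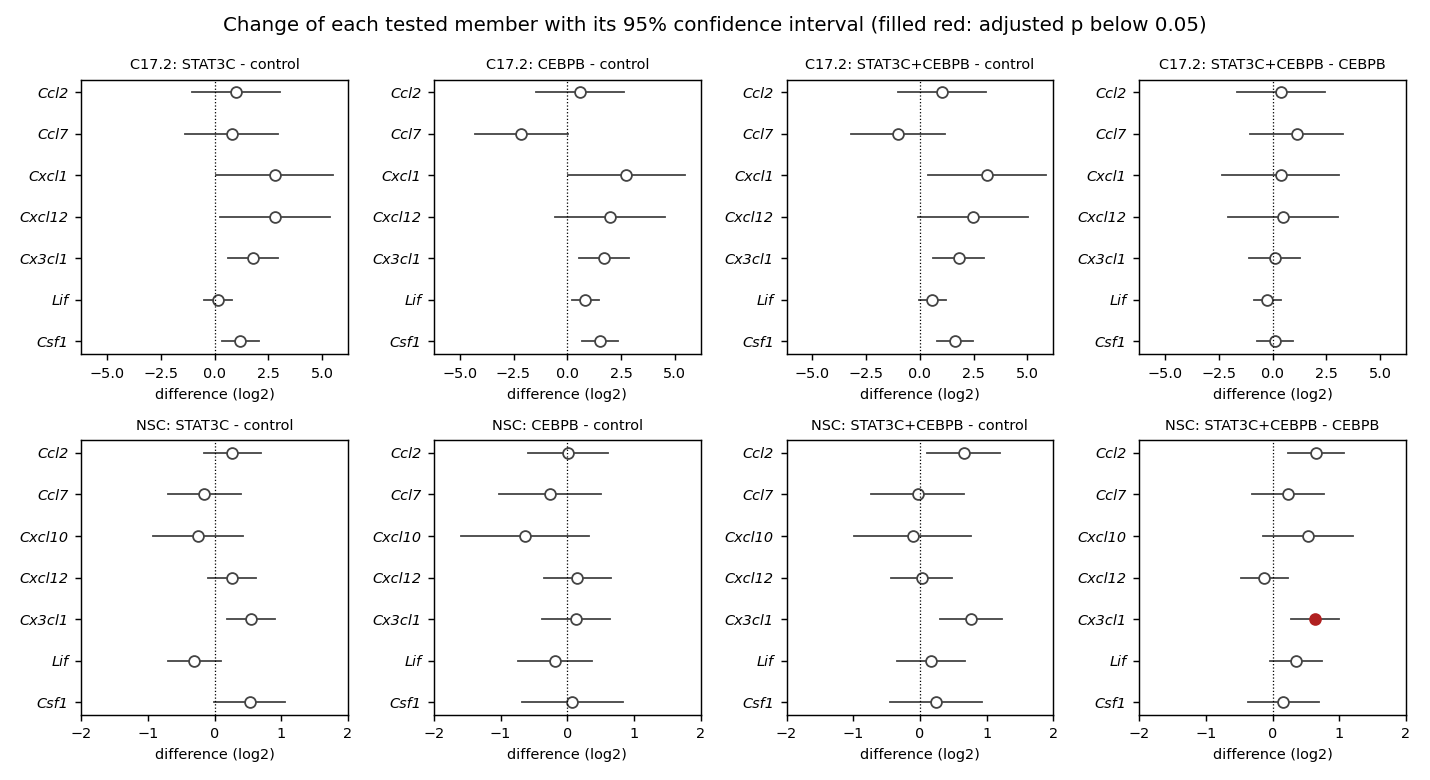
Log2 difference of each tested gene with its 95% confidence interval, C17.2 in the upper and NSC in the lower row, for 4 comparisons; the horizontal scales of the rows differ. One interval, Cx3cl1 in NSC for STAT3C+CEBPB against CEBPB (0.28 to 1.0), belongs to a called difference, and the C17.2 intervals of Cxcl1 and Cxcl12 span more than those of the other genes.

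The spread between C17.2 arrays of one vector was itself large for the chemokines. The residual SD around the group means was 2.03 log2 units for Cxcl1, 1.92 for Cxcl12, 1.62 for Ccl7 and 1.53 for Ccl2, against a median of 0.29 over all tested genes. Only 27 of 9699 genes had a larger residual SD than Cxcl1, and 103 a larger one than Ccl2. Cx3cl1 (0.86), Csf1 (0.61) and Lif (0.45) varied less. In NSC the residual SD ran from 0.26 to 0.53, against a median of 0.21.

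The C17.2 arrays that were high for one of the genes were mostly high for the others. Over the 16 arrays, 20 of the 21 pairs correlated positively, with a median Pearson r of 0.65. The highest were Cxcl1 with Cx3cl1 (r = 0.91, Spearman rho = 0.85), Ccl2 with Cxcl1 (r = 0.87, rho = 0.90), Cxcl12 with Cx3cl1 (r = 0.87, rho = 0.74) and Cxcl1 with Cxcl12 (r = 0.86, rho = 0.86). Without the 2 arrays farthest from the median of the first gene these were 0.86, 0.82, 0.80 and 0.78. Of all genes, 0.0928%, 0.0103%, 0.577% and 0.557% had a higher r with the first gene of these pairs. For pairs near the median, Cxcl12 with Lif, Cxcl12 with Csf1 and Lif with Csf1 (r = 0.65 each), it was 8.65%, 8.78% and 10.3%. The counts of positive pairs, here and after removing the group means, are given without such a share. They are not read as a trait of these genes. The exception was Ccl7 with Lif (r = -0.29). Ccl7 with Ccl2 had an r of 0.58, or 0.26 without the 2 arrays farthest in Ccl2, and 4.24% of all genes had a higher r with Ccl2. Without the 2 arrays farthest in Ccl7, its r was also below 0 with Cxcl1 (-0.09), Cxcl12 (-0.13), Cx3cl1 (-0.34) and Csf1 (-0.42). With these 4 genes in the same order, 18.2%, 36.3%, 44.0% and 37.8% of all genes had a higher r with Ccl7 over the 16 arrays. After removing the group means all 21 pairs were positive, with a median of 0.64, running from 0.13 for Ccl7 with Lif to 0.91 for Ccl2 with Cxcl1. Ccl7 then reached 0.78 with Ccl2, 0.65 with Csf1 and 0.61 with Cxcl1, and 0.13 to 0.30 with Cxcl12, Cx3cl1 and Lif. The arrays of a cell type share slides and normalisation, and no test was made. The 4 printed promoters belong to Cxcl1, Cx3cl1, Cxcl12 and Csf1, which had pairwise correlations of 0.65 to 0.91. Lif correlated with these 4 at 0.65 to 0.67, and its window held no match.

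**Figure D3:**
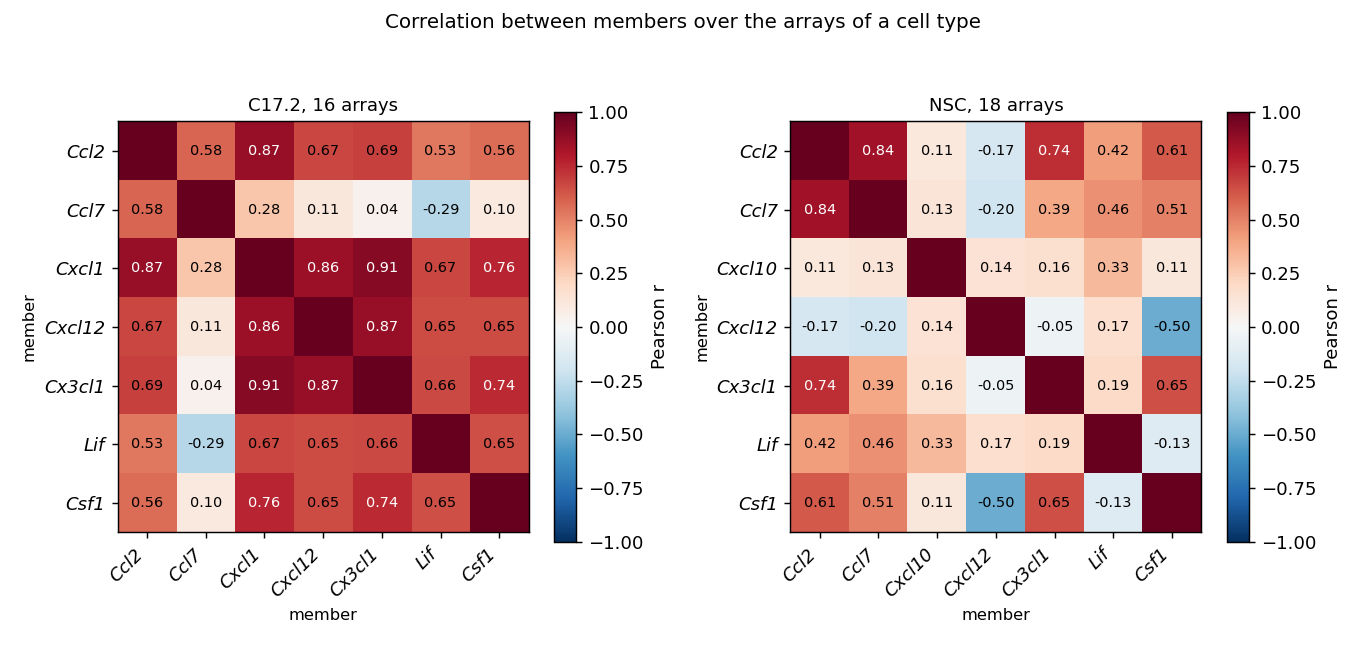
Pearson correlation of each pair of tested genes over the arrays of a cell type, 16 in C17.2 and 18 in NSC. In C17.2 the block of Ccl2, Cxcl1, Cxcl12, Cx3cl1, Lif and Csf1 is positive throughout. Ccl7 correlates with Ccl2 at 0.58 and with the others at -0.29 to 0.28. In NSC the median is 0.17 and 5 of 21 are negative.

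Some of the genes followed the main axis of variation among the C17.2 arrays closely, and Ccl2 and Ccl7 did not. Scores on the first principal component were -37.7, -12.3, 34.8 and 16.6 for STAT3C, 41.8, 43.0, -22.4 and 36.7 for CEBPB and -25.0, 41.4, 41.6 and -20.3 for both vectors, against -37.4, -45.4, -21.3 and -34.1 for control. The correlation with this score was 0.89 for Lif, 0.85 for Cxcl12, 0.84 for Cx3cl1, 0.76 for Cxcl1, 0.66 for Csf1, 0.52 for Ccl2 and -0.27 for Ccl7. High correlations with it are common: 3.72% of all genes had a larger one in size than Lif, 6.46% than Cxcl12, 7.78% than Cx3cl1, 15.0% than Cxcl1, 25.6% than Csf1, 40.0% than Ccl2 and 67.7% than Ccl7. The part of this axis in the differences between vectors was not tested. The genes whose profile was most like that of Cxcl1 over the 16 arrays, among 9692 others, were Nfkbiz (r = 0.96), a regulator of NF-kappaB target genes, Casp4 (r = 0.95), an inflammatory caspase, and Tmem176a (r = 0.94).

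**Figure D4:**
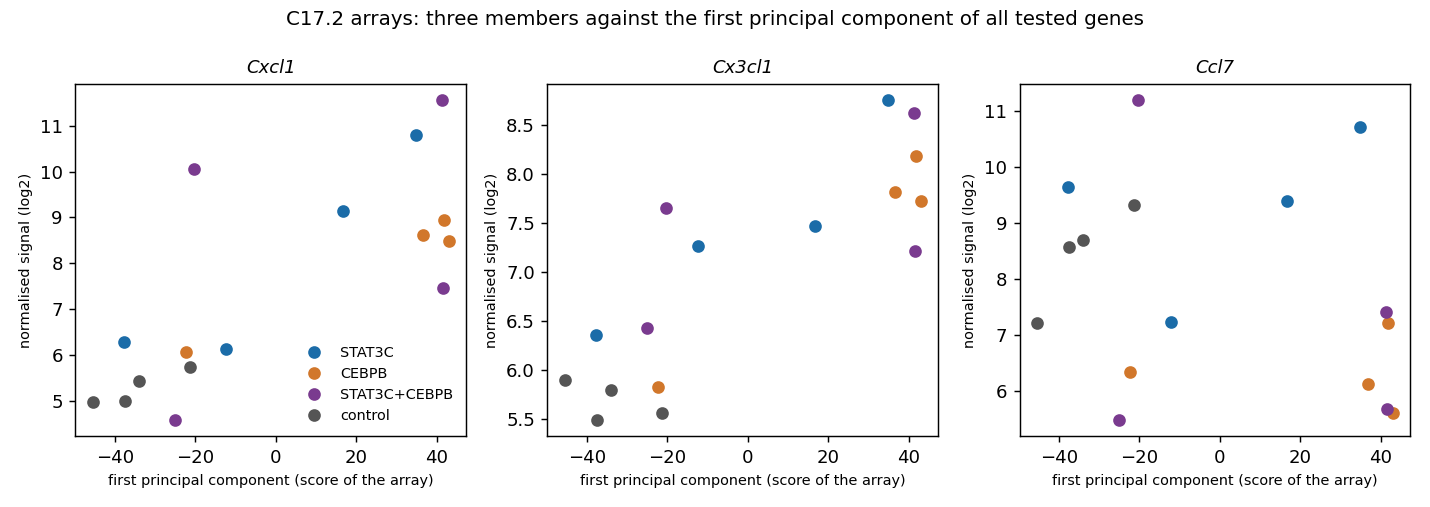
Normalised log2 signal of Cxcl1, Cx3cl1 and Ccl7 on each C17.2 array against the score of the array on the first principal component of all 9699 tested genes, coloured by vector. Cxcl1 and Cx3cl1 climb with the score (r = 0.76 and 0.84), Ccl7 does not (r = -0.27), and the control arrays lie between -45.4 and -21.3.

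The second question was whether the same vectors changed these transcripts in primary NSC. Slide was a term of the fit because slide 4 held STAT3C and control arrays, slide 5 CEBPB and STAT3C+CEBPB arrays, and slide 6 all 4 groups. Slides 4 and 5 shared no group. All comparisons except STAT3C with control and STAT3C+CEBPB with CEBPB were therefore linked only through the 6 arrays of slide 6. Those were 2 control, 1 STAT3C, 1 CEBPB and 2 STAT3C+CEBPB arrays, and 4 of them lacked Xist. In NSC, 7 of the genes, among 10858 tested, passed the detection filter: Ccl2, Ccl7, Cxcl10, Cxcl12, Cx3cl1, Lif and Csf1. Cx3cl1 rose in NSC with STAT3C+CEBPB relative to CEBPB alone, and it was the 1 gene of the 7 called in any NSC comparison. In that comparison 6.47% of all genes were called and 3.22% rose, so 1 of 7 is read against that background. The called shares elsewhere were 0.0% with STAT3C against control (5.14% at an unadjusted p below 0.05, by limma), 0.0276% with CEBPB and 2.84% with both. Between both vectors and STAT3C the share was 0.341%, between CEBPB and STAT3C 0.00921%, and for non-additivity 0.0368%.

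Cx3cl1 was detected on all 18 NSC arrays. Its log2 level was 8.80, 8.67, 8.83 and 8.53 with STAT3C, 8.36, 8.16, 8.67 and 7.98 with CEBPB and 8.95, 8.99, 9.06, 8.20 and 9.21 with STAT3C+CEBPB, against 8.48, 8.38, 7.96, 7.92 and 7.83 in control. All STAT3C arrays were above all controls, 4 of 5 STAT3C+CEBPB arrays were above all controls and all CEBPB arrays, and replicate 4 was the exception. The fitted difference of STAT3C+CEBPB from CEBPB was 0.64 (SE 0.17, limma adjusted p = 0.0337), or 1.56-fold. Within slide 5 it was 0.60 with no overlap of 3 against 3 arrays, and within slide 6 it was 0.73 between 2 arrays and 1. Those slide 6 arrays were STAT3C+CEBPB replicates 4 and 5 at 8.20 and 9.21 and CEBPB replicate 4 at 7.98. Replicate 4 of each group lacked Xist and STAT3C+CEBPB replicate 5 did not, so the slide 6 value mixes unlike arrays. The call rests on few arrays: the adjusted p was 0.0811, 0.118 and 0.0868 without CEBPB replicates 1, 2 and 4, and 0.0733, 0.0789 and 0.0741 without STAT3C+CEBPB replicates 1, 2 and 3, with differences of 0.57 to 0.66. It was also lost without a slide term (0.59, adjusted p = 0.177).

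Against control, Cx3cl1 differed by 0.76 with STAT3C+CEBPB (SE 0.22, limma adjusted p = 0.0745) and by 0.55 with STAT3C (SE 0.17, adjusted p = 0.854), and neither passed. Without the 4 arrays lacking Xist the difference with both vectors was 1.38 (adjusted p = 0.0127), and without STAT3C+CEBPB replicate 4 alone it was 1.06 (adjusted p = 0.00834). The difference also passed with the arrays lacking Xist as a block (0.76, adjusted p = 0.0259), with slide as a random block (0.77, adjusted p = 0.0433) and without a slide term (0.77, adjusted p = 0.0440). Within slide 4 all 3 STAT3C arrays were above all 3 controls (difference 0.50), and on slide 6 the single STAT3C array was above both controls (0.66). Over the whole set, STAT3C arrays all above controls were found for 0.617% of genes. With CEBPB alone the difference was 0.12 (95% interval -0.39 to 0.63).

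The remaining chemokines of NSC were closer to background. The log2 level of Ccl2 was 5.64, 5.95, 5.63 and 4.86 with STAT3C, 5.31, 5.49, 5.49 and 4.70 with CEBPB and 5.65, 5.87, 6.91, 5.0 and 5.45 with both, against 5.55, 5.64, 5.18, 4.62 and 4.62 in control. The slide 6 arrays were the lowest of every group, and only 1 of those 6 detected Ccl2. STAT3C+CEBPB exceeded CEBPB by 0.65 (SE 0.20, limma adjusted p = 0.0619) and control by 0.66 (SE 0.26, adjusted p = 0.192). The first of these passed the test without control replicate 3 (adjusted p = 0.0482), without STAT3C+CEBPB replicate 1 (0.80, adjusted p = 0.0448) or without STAT3C+CEBPB replicate 4 (0.72, adjusted p = 0.0365). Most fits gave no call: over 31, main and alternatives, it passed in 6, and the limma adjusted p reached 0.568. Ccl7 was not detected on any slide 6 array, and its differences from control were -0.15, -0.26 and -0.03 with STAT3C, CEBPB and both. Its array values ran from 4.32 to 6.99, the highest being STAT3C+CEBPB replicate 3, which was also the highest for Ccl2.

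Cxcl10, an interferon-induced attractant of T cells that acts through Cxcr3, was detected on 17 of 18 NSC arrays. Its log2 level was 5.88, 6.02, 5.71 and 5.25 with STAT3C, 5.29, 5.17, 5.35 and 5.73 with CEBPB and 6.30, 6.33, 5.77, 4.82 and 6.2 with both, against 5.60, 5.49, 6.53, 5.46 and 6.66 in control. The groups overlapped in every comparison with control, and the differences were -0.25, -0.64 and -0.11 (limma adjusted p = 0.918, 0.777 and 0.942). STAT3C+CEBPB exceeded CEBPB by 0.53 (SE 0.32, adjusted p = 0.364): the 3 arrays of each group on slide 5 did not overlap (0.86), while slide 6 gave -0.22. The arrays lacking Xist include the only CEBPB array of slide 6. Without them this difference rests on the same slide 5 arrays and was again 0.86 (limma adjusted p = 0.0230). The second Cxcl10 probe was detected on none of the 34 arrays.

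Cxcl12 was represented in NSC by another probe than in C17.2, detected on 9 of 18 arrays, and its log2 values ran from 4.63 to 5.53 with differences from control of 0.26, 0.15 and 0.03. The probe used for C17.2 was detected on no NSC array. Cxcl1 was likewise detected on no NSC array, with signals between -8.21 and 11.8.

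Among the cytokines of NSC, Csf1 was detected on all 18 arrays. Its log2 level was 7.42, 7.43, 7.54 and 6.17 with STAT3C, 7.06, 7.16, 6.93 and 6.24 with CEBPB and 7.46, 7.36, 6.85, 5.91 and 6.82 with both, against 7.0, 6.98, 5.85, 6.45 and 6.32 in control. Replicate 4 was the lowest array of each transduced group. The difference with STAT3C was 0.53 (SE 0.25, limma adjusted p = 0.854), made of 0.85 on slide 4 and -0.22 on slide 6. Lif was detected on 1 of 4 STAT3C, 3 of 4 CEBPB, 5 of 5 STAT3C+CEBPB and 4 of 5 control arrays. Its log2 level was 5.15, 5.19, 5.90, 5.17 and 5.67 with both vectors, all above the 4.90, 4.88, 4.99 and 4.80 of the STAT3C arrays (fitted difference 0.47, SE 0.26, limma adjusted p = 0.544), a separation found in that direction for 2.6% of genes. Il6 was detected on 2 of 18 NSC arrays, CEBPB replicate 1 at a signal of 10.2 and STAT3C+CEBPB replicate 5 at 26.9, against control signals of -0.85 to 20.0.

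**Figure D5:**
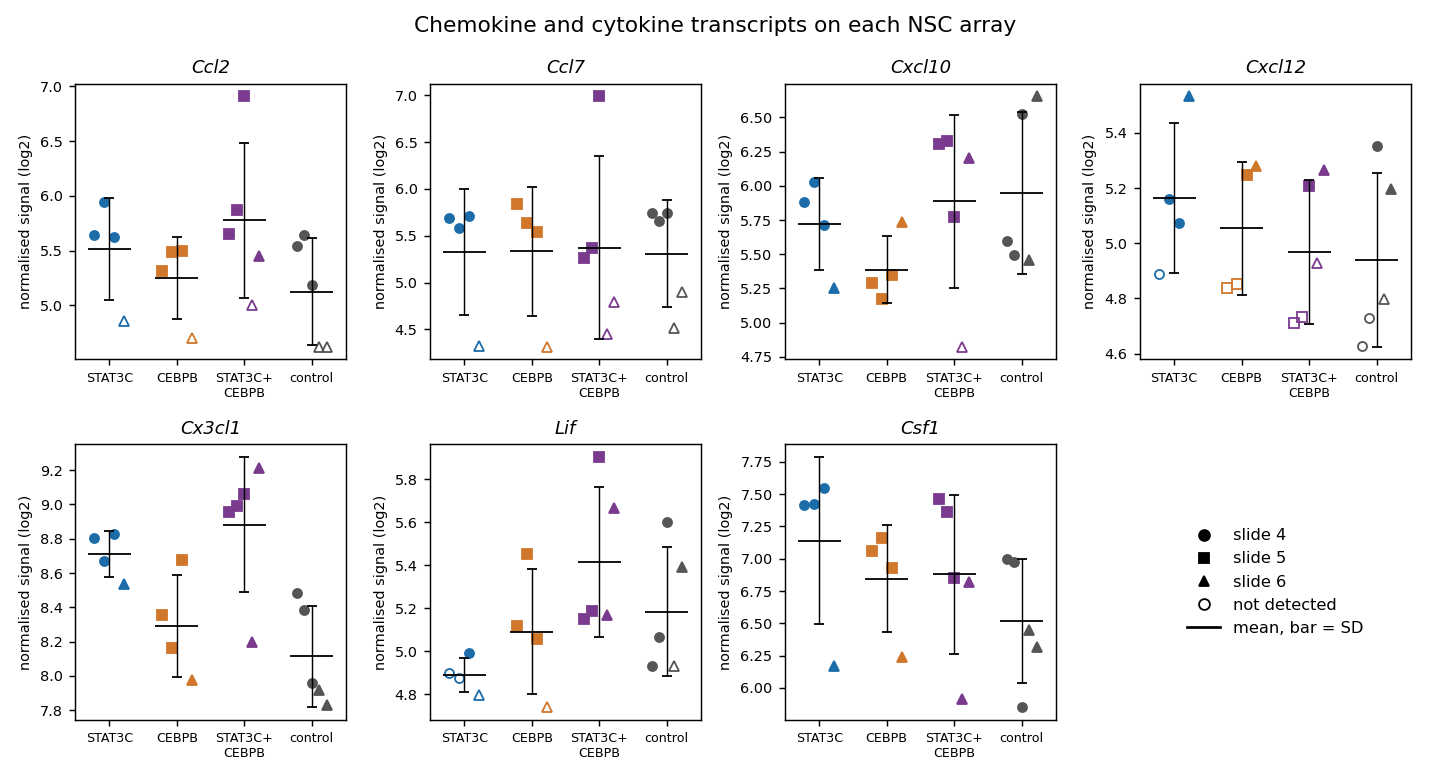
Normalised log2 signal of the 7 tested genes on each of the 18 NSC arrays, by vector group, with the group mean and SD; the symbol gives the slide and open symbols are arrays that did not detect the probe. For Cx3cl1, 4 of 5 STAT3C+CEBPB arrays lie between 8.95 and 9.21, above the controls at 7.83 to 8.48, and the slide 6 arrays are low for Ccl2 and Ccl7.

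Over the 18 NSC arrays 16 of 21 pairs correlated positively, with a median r of 0.17. Ccl2 and Ccl7 formed the closest pair (r = 0.84, rho = 0.53; 0.69 without the 2 arrays farthest in Ccl2). The genes most like Ccl7, the widest ranging of the 7 here, were Nfxl1 (r = 0.92), Ppme1 (r = 0.89) and Rnf4 (r = 0.89) among 10851 others. The score on the first principal component, which sets the arrays lacking Xist apart, correlated with Ccl7 at 0.83, with Csf1 at 0.77 and with Ccl2 at 0.72. Of all genes, 11.9%, 19.2% and 25.5% had a larger correlation with it in size. The other members had lower ones: Cx3cl1 0.49, Cxcl10 0.29, Lif 0.24 and Cxcl12 -0.37.

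Receptors decide which cells can answer these ligands. Ccr1 and Ccr2 (receptors of Ccl7 and Ccl2), Cxcr2 (Cxcl1), Cxcr3 (Cxcl10), Cx3cr1 (Cx3cl1) and Ackr3 (a second receptor of Cxcl12) were detected on no array of either cell type. Cxcr4, the signalling receptor of Cxcl12, was detected on 17 of 18 NSC arrays and on 0 of 16 C17.2 arrays. In NSC it rose with STAT3C+CEBPB relative to control by 1.05 (SE 0.24, limma adjusted p = 0.0280): log2 levels were 6.01, 6.22, 5.75, 5.93 and 6.24 with both vectors, against 5.25, 5.47, 5.75, 4.97 and 5.57 in control, with 1 control array level with the lowest of the 5. The plain group means were 6.03 ± 0.21 (SD, n = 5) and 5.40 ± 0.30 (SD, n = 5). They are closer than the fitted difference, which adjusts for slide and is linked through slide 6 alone. The Cxcr4 call was lost without a slide term (0.63, limma adjusted p = 0.125) and without replicate 4 of STAT3C, CEBPB or control (adjusted p = 0.0665, 0.0815 and 0.114). Without the arrays lacking Xist the difference was 0.68, which rests on control replicate 5 and STAT3C+CEBPB replicate 5 alone. Of the 13 receptor genes, 2 passed the filter in C17.2 (Il6ra and Il6st) and 5 in NSC (those with Cxcr4, Csf1r and Lifr). Apart from Cxcr4 none of these was called in either cell type. The best-detected Il6ra probe gave signals of 29.0 to 206 on all 16 C17.2 arrays. Csf1r, the receptor of Csf1 and a marker of microglia, had 1 probe detected on 14 of 18 NSC arrays at signals of 6.41 to 48.6, and its other probe was detected on none. In bulk RNA a change in the share of a cell type and a change of RNA per cell cannot be told apart. Of the 14 microglia and macrophage markers, 9 were never detected in C17.2 and 9 never in NSC, and C1qa, C1qb, C1qc, Cx3cr1, Fcer1g, Ptprc, Trem2 and Tyrobp were undetected in both. Others of the list were detected: 3 passed the filter in C17.2 and 4 in NSC, and none was called. In NSC 1 of the list was detected on every array, and in C17.2 0. The summed signal of the list was 47.5 to 404 with STAT3C, 20.4 to 160 with CEBPB and 60.6 to 862 with both, against 16.2 to 302 in C17.2 control. In NSC it was 71.6 to 108, 49.9 to 139 and 51.8 to 170, against 51.2 to 175 in control.

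Genes around the members in the same pathways gave few calls. Of 21 other chemokine ligands, 4 were tested in C17.2 and 6 in NSC, and the single call was a fall of Ccl25, an attractant of thymocytes, with CEBPB in C17.2 (7.87 ± 0.15 against 8.62 ± 0.15 in control; difference -0.75, SE 0.15, limma adjusted p = 0.0243). The Ccl25 call was lost without CEBPB replicates 1 or 2 or control replicates 1, 2 or 4, with adjusted p up to 0.0952. Of 20 other cytokines, 9 were tested in each cell type, and Mif fell in NSC with STAT3C+CEBPB relative to CEBPB (-0.40, SE 0.11, adjusted p = 0.0325). The Mif call was lost without any 1 of replicates 1 to 3 of either group, with adjusted p up to 0.121, and without a slide term (adjusted p = 0.137). Of 13 genes of IL-6 family signalling, all were tested in C17.2 with no call, and of 12 tested in NSC Cish, a feedback inhibitor of cytokine receptors, rose in the same comparison (0.57, SE 0.13, adjusted p = 0.0168). The Cish call was lost without a slide term (0.69, adjusted p = 0.225) and without replicate 2 of STAT3C+CEBPB or of CEBPB (adjusted p = 0.0518 and 0.0611). None of the 12 NF-kappaB pathway genes tested in C17.2 was called, although 9, 11 and 12 of them lay above control with STAT3C, CEBPB and both (medians 0.60, 0.70 and 0.81), where 47.9%, 51.0% and 51.0% of all genes did. In NSC 6, 6 and 8 of 11 lay above control, with medians of 0.02, 0.01 and 0.13. None of the 7 interferon-stimulated genes tested in C17.2 or of the 11 tested in NSC was called. In C17.2 4, 6 and 7 of the 7 lay above control with STAT3C, CEBPB and both (medians 0.28, 0.07 and 0.75). In NSC 5, 1 and 3 of the 11 did (medians -0.11, -0.56 and -0.24), against 54.5%, 54.0% and 51.0% of all genes.

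Some marker genes of cell identity also moved in NSC with both vectors. Relative to control, Sox2, a neural stem cell factor, fell by 0.98 (SE 0.23, limma adjusted p = 0.0335), Aqp4, an astrocyte water channel, by 1.77 (SE 0.41, adjusted p = 0.0287) and the myelin gene Mbp by 1.07 (SE 0.15, adjusted p = 0.00145). With both vectors Aqp4 averaged 4.84 and Mbp 4.91. The lowest detected values of the NSC arrays were 4.89 to 5.13, so signals near background limit the size of these falls. The fall of Mbp is the slide-adjusted value, since its plain means were 4.91 ± 0.13 with both vectors (SD, n = 5) and 5.20 ± 0.77 in control (SD, n = 5). The Sox2, Aqp4 and Mbp differences from control are linked through slide 6 alone. The Mbp call was lost without a slide term (-0.29, limma adjusted p = 0.753), as were the Aqp4 and Sox2 calls. The Sox2 call was also lost in 8 of the 18 fits with 1 array left out. Without the arrays lacking Xist these differences rest on control replicate 5 and STAT3C+CEBPB replicate 5 alone, so no call is read from that fit. In this comparison 1 of 6 neural stem, 1 of 6 astrocyte and 1 of 5 oligodendrocyte markers tested fell and none rose, against 2.84% of all genes called. Relative to CEBPB, the comparison in which Cx3cl1 rose, Sox2, Hes1, Aqp4, Slc1a2, Olig2 and Mbp fell, by 0.43 to 1.65. These are 2 of 6 neural stem, 2 of 6 astrocyte and 2 of 5 oligodendrocyte markers tested, with list medians of 0.05, -0.15 and -0.57, where 6.47% of all genes were called. With 1 array left out the Sox2 and Olig2 calls held in 4 and 5 of 18 fits and that of Slc1a2 in 12 of 18. In C17.2 the fibroblast and pericyte marker Mgp rose with STAT3C (2.80, SE 0.36, adjusted p = 0.00917), the single call among 5 such markers tested, whose median difference was 0.08. That Mgp call was lost without STAT3C replicate 2 or control replicates 1 or 4 (limma adjusted p = 0.0658, 0.0621 and 0.0696), and the deposited values gave 0.89 (adjusted p = 0.153). These STAT3C and control arrays share no slide. Relative to STAT3C, Mgp was also called lower with both vectors (-2.88, adjusted p = 0.00544) and with CEBPB (-2.49, adjusted p = 0.0152). Both of these calls were lost with slide as a fixed term. The part of these markers in the changes of the chemokines was not tested.

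The last question was how the line and the primary cells differ in these genes. A joint fit took all 34 arrays, normalised together and with no slide term, and tested 8 of the genes among 11497. Of the 8, 4 differed between C17.2 control and NSC control, where 49.4% of all genes did, 24.6% higher and 24.7% lower in C17.2. Ccl2 was higher in C17.2 control (8.05 ± 0.65, n = 4) than in NSC control (5.06 ± 0.43, n = 5), by 3.0 (SE 0.66, limma adjusted p = 0.00039). Ccl7 was higher by 3.31 (SE 0.73, adjusted p = 0.000406) and Csf1 by 1.15 (SE 0.36, adjusted p = 0.00953). The Csf1 difference lost its call without C17.2 control replicate 3 (0.83, adjusted p = 0.0706). With each cell type normalised apart it was 0.88 (limma adjusted p = 0.0474). Cx3cl1 was lower in C17.2 control (5.86 ± 0.20) than in NSC control (8.03 ± 0.31), with a difference of -2.16 (SE 0.39, adjusted p = 2.95e-05). Cxcl10 was detected on 0 of 4 C17.2 controls and 5 of 5 NSC controls and was at least 1.60-fold lower in C17.2 control (adjusted p = 0.0644), a bound that gives undetected arrays the lowest detected value of the array. The limma adjusted p of Cxcl10 was 0.0363 without C17.2 STAT3C replicate 3 and 0.0199 without C17.2 STAT3C+CEBPB replicate 4. With each cell type normalised apart it was 0.0376. Cxcl1 was detected on 2 of 4 C17.2 controls and on 0 of 5 NSC controls (adjusted p = 0.392). So was the Cxcl12 probe of the joint fit, with overlapping arrays (adjusted p = 0.467), while the other Cxcl12 probe, which stood for the gene in NSC, was detected on 0 of 4 C17.2 controls and 2 of 5 NSC controls, so no direction is given. No slide held both cell types, so slide and cell type cannot be told apart.

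None of the 8 genes was called for a different vector effect in the 2 cell types. The change in C17.2 minus the change in NSC was 1.11 for Cx3cl1 with STAT3C (SE 0.56, limma adjusted p = 0.592), 0.99 for Lif with CEBPB (SE 0.36, adjusted p = 0.132) and 1.18 for Csf1 with both vectors (SE 0.51, adjusted p = 0.259). The Cxcl1 and Cxcl12 probes of this fit were detected on 0 of 18 NSC arrays, so their difference restates the C17.2 change and is not given. Among all genes 0.0261%, 1.51% and 1.36% were called. Without C17.2 CEBPB replicate 3 the CEBPB effect on Cx3cl1 differed between the cell types by 1.96 (adjusted p = 0.0168). Without C17.2 STAT3C+CEBPB replicate 1 the single call for both vectors was Cxcl1, undetected in NSC.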

How the data were processed

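RNA for 34 arrays, 200 ng each, was hybridised to mouse Illumina BeadChips on 6 slides. The submitters' processing notes name BeadStudio and lumi, with no version or role given. Per the file headers, the deposited scanner tables hold a bead signal intensity per probe, here seen to be background-subtracted and not normalised between arrays, a detection p-value and the number of beads and their spread (other columns). A deposited matrix of the authors' normalised values, read as log2 from its range, served as an alternative. The base of its log and its method are not given in the sources used here.

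Signals were background-corrected and quantile-normalised per cell type with limma 3.58.1 in R 4.3.3 (neqc, offset 16). Of 45281 probes, 34885 had 1 gene symbol, 18 several and 10378 none. A gene entered the test if any of its probes had a detection p below 0.05 on 4 or more arrays in that cell type, and the probe of highest mean stood for it. Differences were fitted with lmFit and eBayes over all groups, with slide as a term in NSC, and p-values adjusted by Benjamini-Hochberg over all genes tested, with 0.05 as the threshold. The fit was tested on simulated data. No pair of arrays was identical. Replicate numbers follow the order of deposition and pair no arrays, and the arrays lacking Xist were found from the data. The number of arrays limits the precision.

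The genes and lists were chosen with earlier results of these data known. Named are the 10 genes, their receptors, genes called in the other lists, and the 3 genes most correlated with the widest-ranging of the 10. Alternatives covered background offset, normalisation, detection filter, probe choice, array weights, slide and each array left out. Those for called genes of the other lists were added after seeing the data.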

Additional observations from a re-analysis of the deposited data

Results flagged for a closer look

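Of 56 groups of arrays checked, 4 held an array far from the rest of its group. The rule is set to flag about 1 in 20 groups by chance, a rate not computed from these data. The groups of the different genes share arrays. In C17.2 with CEBPB, replicate 3 had a Cxcl1 log2 level of 6.06, against 8.49 to 8.94 on the other 3 arrays. The remaining 3 lie on NSC slide 6 and are arrays that lacked Xist. With STAT3C, replicate 4 had a Ccl7 log2 level of 4.32, against 5.58 to 5.72, and a Csf1 log2 level of 6.17, against 7.42 to 7.54. With STAT3C+CEBPB, replicate 4 had a Cx3cl1 log2 level of 8.20, against 8.95 to 9.21.

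Signal was also seen in genes too rarely detected to be tested. Cxcl10 had a background-subtracted signal of 244.4 and 112 on C17.2 STAT3C replicates 3 and 4 and of 236 on C17.2 STAT3C+CEBPB replicate 4, against -2.53 to 5.82 on the 4 C17.2 controls. Il6 had a signal of 26.9 on NSC STAT3C+CEBPB replicate 5, against -0.85 to 20.0 on the 5 NSC controls.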

How the results depend on the processing

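No called difference of the 10 genes changed sign under any alternative run, and none of the called genes of the other lists did, whose alternatives were added after seeing the data. The number of the 10 genes called moved most under array quality weights: in C17.2 it was 2 with STAT3C and 5 with CEBPB against control, and in NSC it was 1 with STAT3C against control, 3 with STAT3C+CEBPB against CEBPB and 2 for non-additivity. With slide as a random block it was 1 in C17.2 with CEBPB and 1 with both vectors, and 1 in NSC with both against control (Csf1 in C17.2, Cx3cl1 in NSC). With median scaling it was 1 in C17.2 with CEBPB. In NSC with both vectors against control it was 1 without a slide term and 1 with the arrays lacking Xist as a block. Without those arrays this comparison rests on control replicate 5 and STAT3C+CEBPB replicate 5 alone, so no number is given. In NSC with both against CEBPB it was 0 without a slide term and 0 without the detection filter (Cx3cl1 adjusted p = 0.177 and 0.0505, limma), and 2 with the arrays lacking Xist as a block or left out. Under median scaling Cx3cl1 lost that call (0.67, adjusted p = 0.0764) and Ccl2 gained it (0.67, adjusted p = 0.0396). Leaving out 1 array at a time gave 0 to 2 in C17.2 with CEBPB, 0 to 3 with both vectors, 0 to 2 in NSC with both against CEBPB, 0 to 1 with both against control, and 3 to 5 between the controls of the 2 cell types. The difference of the CEBPB effect between cell types gave 0 to 1, as did that of both vectors. The cause was not tested.

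The number of all genes called ranged over the alternatives from 0 to 268 in C17.2 with STAT3C, from 5 to 2491 with CEBPB and from 15 to 432 with both, each against control. In NSC it ranged from 0 to 117 with STAT3C, from 1 to 108 with CEBPB and from 170 to 899 with both, each against control, and from 101 to 4231 with both against CEBPB. Among the other comparisons it ranged in C17.2 from 1 to 40 for both against STAT3C, from 0 to 86 for CEBPB against STAT3C and from 0 to 16 for non-additivity. In NSC these ranges were 3 to 225, 1 to 48 and 0 to 2423. No paired analysis was possible because the labels give the arrays no replicate numbers: those used here follow the order of deposition, only name the arrays and pair none. Signals near background limit Lif, Cxcl10, Il6 and, in NSC, Ccl2, Ccl7, Cxcl12 and the markers Aqp4 and Mbp.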
